A study of Mus musculus with 6 samples.

Results

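Axon guidance ligands and receptors were described in translated mRNA from astrocyte-tagged ribosomes of the adult mouse diencephalon and cortical grey matter. The members were taken by gene symbol: every gene named as a semaphorin, plexin, neuropilin, ephrin, Eph receptor, netrin, netrin-G, UNC5 receptor, slit or robo, together with Dcc and Neo1. The rule matched 73 of the 23955 gene symbols in the files. Of these, 37 encode ligands and 35 encode receptors, and the remaining symbol, Plxna4os1, is an antisense RNA that had no count in any library. 60 members had enough counts to be tested, and the 13 that did not are given near the end.

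These families are the classical cues and receptors that steer growing axons, by attraction or repulsion, through changes in the cytoskeleton of the growth cone. Semaphorins bind plexins, and most secreted semaphorins need a neuropilin as co-receptor. Ephrins are membrane-bound ligands that signal to Eph receptor tyrosine kinases in a neighbouring cell, slits repel through robos, and netrins attract through DCC and repel through UNC5 receptors. In the adult brain the same proteins are present at synapses, on vessels and on glia, where astrocytic ephrins and Eph receptors act on dendritic spines and astrocytic semaphorins on neighbouring neurons.

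The study compared 3 diencephalon with 3 cortical grey matter libraries, each from 3 pooled mice. All mice were C57BL/6, aged 3 months, and carried Slc1a3 +/- GFP+ Rpl22HA fl/fl, that is, 1 allele of a tamoxifen-inducible Cre at the glutamate transporter locus Slc1a3 (Slc1a3tm1(cre/ERT2)Mgoe), a Cre-dependent HA tag on the ribosomal protein Rpl22 (B6N.129-Rpl22 tm1.1Psam/J) and a Cre-dependent GFP reporter (Tg(CAG-cat,-EGFP)1Rbns/KrnzJ, made on FVB.B6). All of them received tamoxifen by gavage, 3 times at 48 h intervals at 0.4 mg per g, from 9 weeks of age. The tag is set by Slc1a3 promoter activity at that age, so any other Slc1a3-expressing cell is tagged too. The region around the third ventricle was left out of the diencephalon, and the meninges and white matter were left out of the cortex. Both regions thus shared genotype and treatment, and no library of unpurified tissue RNA was analysed here.

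The libraries held 1733145 to 2334237 expected counts, and the members took 0.627% to 0.644% of them in diencephalon and 0.484% to 0.520% in cortex. Cortical replicate 3 stood apart: compared with the other cortical libraries its counts gave chi-square values of 6.48 and 7.47 for each degree of freedom, where the remaining pairs within a region gave 2.71 to 3.64. The astrocyte markers were abundant in every library, and their sum was 1.69-fold lower in diencephalon (18251 to 21615 CPM, counts scaled to a common library total, against 28476 to 35959), with 6 of 12 lower and 0 higher. Markers of other cells also moved with region. Oligodendrocyte markers summed to 1734 to 2317 CPM in diencephalon and 794 to 1018 in cortex (7 of 8 tested higher), and ependymal and choroid plexus markers to 138 to 171 and 4.35 to 33.0 CPM (4 of 5 tested higher, Tmem212 at 0 in cortex). Subcortical neuron markers summed to 589 to 760 against 120 to 139 CPM (4 of 4 tested higher, Pmch, Hcrt, Avp and Pomc at 0 in cortex and Agrp at 0 in diencephalon). Cortical excitatory neuron markers ran the other way, 1274 to 1674 against 5551 to 6547 CPM (11 of 12 lower, Foxp2 higher), as did meningeal and fibroblast markers (847 to 1285 against 4676 to 8502 CPM, 11 of 12 lower). The remaining lists were pan-neuronal (1858 to 1949 against 2563 to 3616 CPM, 3 of 9 higher and 2 lower), GABAergic (226 to 260 against 168 to 227 CPM, 2 of 5 tested higher and 1 lower, Vip at 0 in diencephalon and Pvalb at 0 in cortex), microglia (270 to 475 against 374 to 816 CPM, 2 of 7 tested lower), oligodendrocyte progenitor (179 to 201 against 235 to 267 CPM, 3 of 7 lower), and endothelial and mural (71.7 to 84.7 against 114 to 122 CPM, 1 of 5 tested lower). The part of these cells in the values that follow was not tested, and in such bulk samples fewer cells of a type and less RNA per cell cannot be told apart. Among the markers at 0, Avp, Pomc, Agrp and Pvalb reached at most 1.24 CPM in any library, so their zeros do not tell the regions apart.

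Of the 60 tested members, 21 were higher and 12 lower in diencephalon, and 27 did not pass the test, edgeR's quasi-likelihood test with Benjamini-Hochberg adjustment at 0.05 over all 10568 genes tested. The 33 called members made up 55.0% of those tested, against 29.6% of all genes. The members called higher were 35.0%, against 14.9% of all genes, and those called lower were 20%, against 14.8%. The 3 libraries of a region all lay above or all below those of the other for 37 members, or 61.7%, against 42.6% of all genes. The median log2 difference, taken throughout as diencephalon minus cortical grey matter, was 0.28 over the members and 0.01 over all genes. Members have long transcripts, with a median of 5240 bases against 3291 for all tested genes, and 19 were in the longest 10% of genes, where 28.6% were called higher and 15.5% lower. With the trend of the difference on length removed, 20 members were higher and 12 lower. Without cortical replicate 3 the counts were 24 and 11. The count of lower members was less stable than that of higher ones: it was 6 and 5 on the log2 TPM scales (pseudocounts 1 and 0.1, with 23 higher on both), 7 without diencephalon replicate 3 (20 higher) and 8 without diencephalon replicate 1 (23 higher). Rn45s, the precursor of ribosomal RNA, made up 3.52% to 4.48% of the counts of diencephalon libraries and 1.77% to 2.23% in the cortical ones, without overlap, and its part in the calls was not tested.

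In the edgeR test the directions divided most families. On both TPM scales the lower calls of Efna5, Ephb1, Plxna2, Robo2, Slit3 and Unc5a were lost. No slit, robo, A plexin or Eph receptor was called lower there. Ligands and receptors were alike in count, with 9 of 29 tested ligands higher and 6 lower, and 12 of 31 receptors higher and 6 lower. Of the 10 tested netrin-system members 6 were higher and 2 lower, and all 5 tested slits and robos moved, 3 up and 2 down. Of 11 semaphorin receptors 6 were higher and 2 lower, whereas of 16 tested semaphorins 3 were higher and 3 lower. Of 6 tested ephrins 3 were called, and of 12 tested Eph receptors 3, or 25%, below the 29.6% of all genes.

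**Figure D1:**
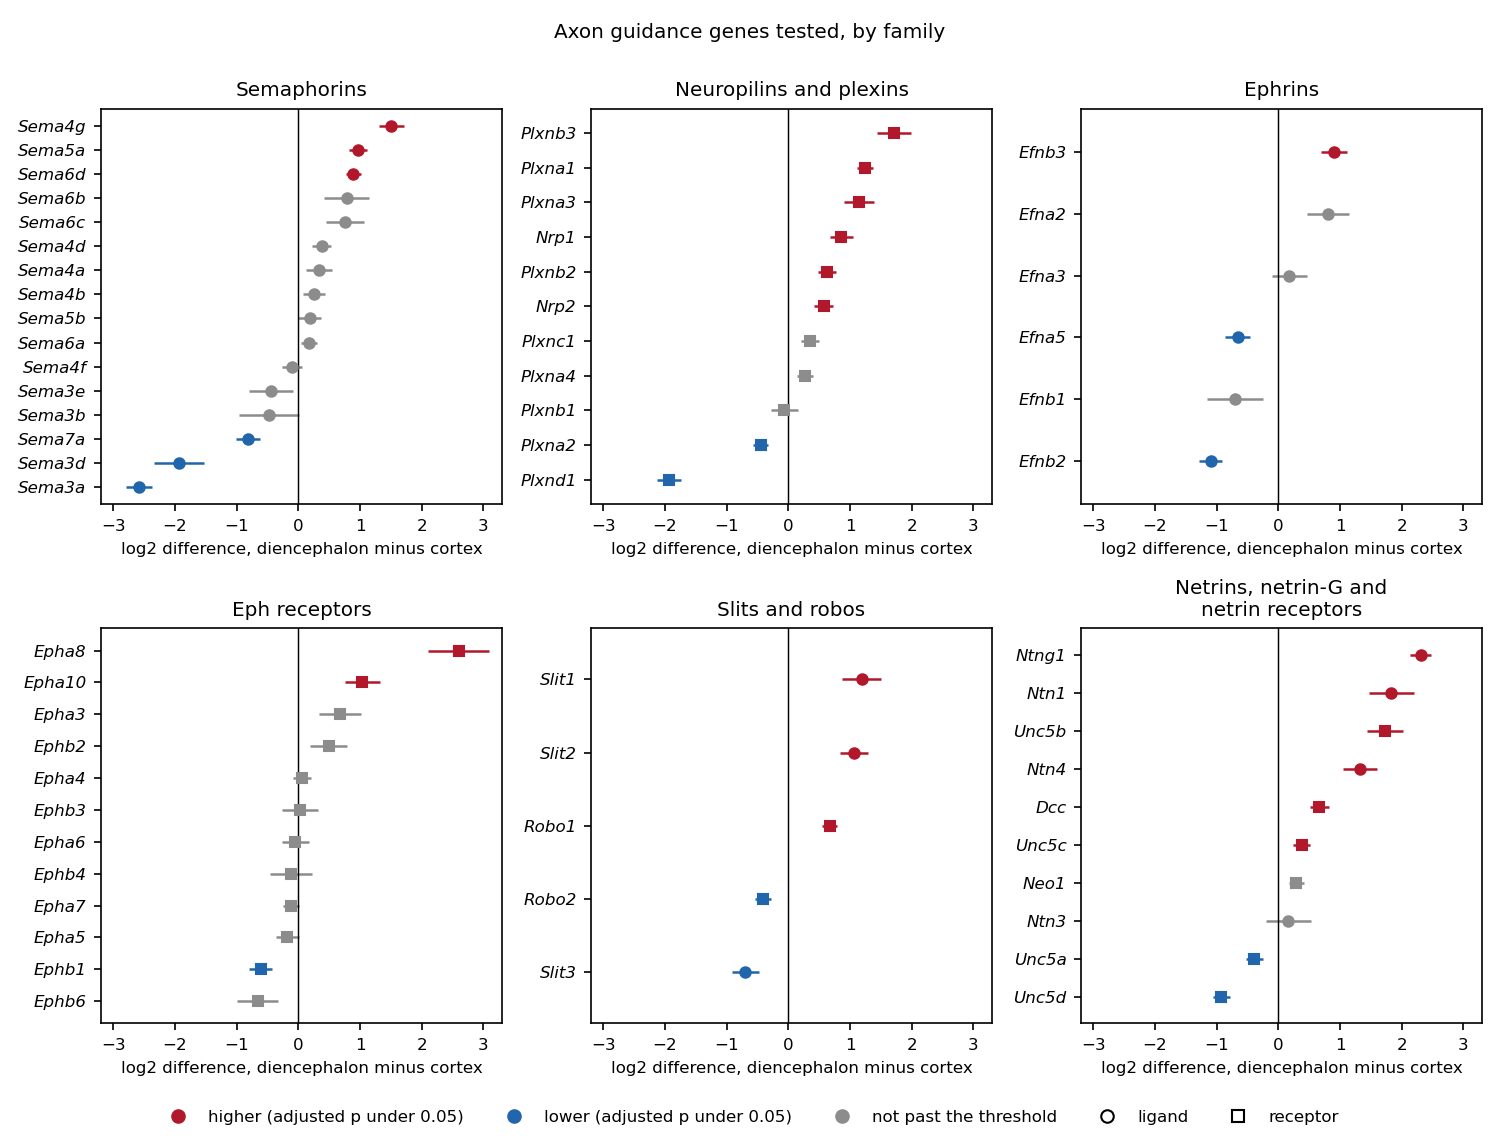
Log2 difference between regions (horizontal axis, diencephalon minus cortical grey matter, edgeR estimate with its standard error as whiskers) for each of the 60 tested members, in 6 panels by family. Points right of 0 are higher in diencephalon; Ntng1 and Epha8 lie farthest right, at 2.31 and 2.59, and Sema3a farthest left, at -2.59.

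The gene starts of 4 members with some of the clearest differences are printed to show the sequence beside the values, 2 that were higher and 2 that were lower. They are the called members with the smallest adjusted p in each direction among those with exactly 1 start in the RefSeq promoter table (build GRCm38.p6), and each sequence is the 250 bases upstream of the start, 5′ to 3′ on the gene's strand, with the GC box GGGCGG or its reverse complement CCGCCC in capitals.
Ntng1, chr3:110143473-110143722, minus strand: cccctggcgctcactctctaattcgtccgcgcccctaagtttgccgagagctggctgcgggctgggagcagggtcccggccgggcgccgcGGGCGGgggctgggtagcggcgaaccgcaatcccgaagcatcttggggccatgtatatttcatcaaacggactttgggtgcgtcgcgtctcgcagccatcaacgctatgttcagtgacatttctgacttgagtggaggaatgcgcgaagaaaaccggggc
Sema4g, chr19:44989094-44989343, plus strand: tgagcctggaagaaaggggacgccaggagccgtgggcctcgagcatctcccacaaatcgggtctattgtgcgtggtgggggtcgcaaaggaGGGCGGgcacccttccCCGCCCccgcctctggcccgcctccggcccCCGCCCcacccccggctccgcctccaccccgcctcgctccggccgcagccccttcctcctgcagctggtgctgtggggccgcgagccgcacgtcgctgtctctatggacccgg
Sema3a, chr5:13396534-13396783, plus strand: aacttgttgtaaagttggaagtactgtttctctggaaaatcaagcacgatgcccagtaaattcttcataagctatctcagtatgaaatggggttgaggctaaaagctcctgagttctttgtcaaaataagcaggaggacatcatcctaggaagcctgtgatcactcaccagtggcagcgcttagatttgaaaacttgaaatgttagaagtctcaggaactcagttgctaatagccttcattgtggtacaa
Plxnd1, chr6:115995006-115995255, minus strand: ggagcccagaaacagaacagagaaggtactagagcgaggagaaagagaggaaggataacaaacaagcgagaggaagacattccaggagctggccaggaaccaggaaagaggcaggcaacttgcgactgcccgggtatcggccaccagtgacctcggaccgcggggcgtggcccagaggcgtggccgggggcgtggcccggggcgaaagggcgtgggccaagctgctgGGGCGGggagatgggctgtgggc
The Sema4g window held 3 matches and was 73.2% G or C with 24 CpG, and the Ntng1 window held 1 match with 62.4% and 25 CpG. The Plxnd1 window also held 1 match, with 64.8% and 16 CpG, whereas that of Sema3a held none, with 40.8% and 2 CpG. None of the 4 contained TATAAA on either strand. A GC box was found in 32.7% of all 32851 starts in the table, which also lists noncoding genes, and in 70.5% of the 78 starts of the 62 members matched. Among called members it was found in 77.8% of 18 starts of those higher and 53.8% of 13 starts of those lower. A match describes the letters only.

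Among the ligands, the calls in the secreted class 3 semaphorins were all towards cortex: of 4 tested members 2 were lower and 0 higher, with a median log2 difference of -1.21. In the values by library that follow, CPM on TMM-scaled library sizes are given in the order of replicates 1, 2 and 3. Sema3a, the secreted repellent that signals through Nrp1 and A-type plexins, stood at 10.3, 16.3 and 13.1 CPM in diencephalon and 68.9, 80.9 and 88.8 CPM in cortex. The ranges were far apart, and Sema3a was 6.00-fold lower in diencephalon (log2 difference -2.59 ± 0.21, adjusted p = 6.98e-09). Sema3d, another secreted member of the class, stood at 2.34, 3.16 and 6.27 CPM in diencephalon and 10.9, 19.2 and 15.5 CPM in cortex. Its groups did not overlap either, at lower counts, and the difference was 3.84-fold (log2 difference -1.94 ± 0.41, adjusted p = 8.79e-04). The Sema3d call was lost on log2(TPM + 0.1), at an adjusted p of 0.0579 (range over the alternatives 2.27e-05 to 0.0579). Sema3b and Sema3e, the ligand that binds Plxnd1 without a neuropilin, did not pass (log2 difference -0.48 ± 0.48, adjusted p = 0.493, and log2 difference -0.45 ± 0.35, adjusted p = 0.371). Summed over the class, the level per length was 25.6 ± 7.31 TPM (length-scaled abundance, mean ± SD, n = 3) in diencephalon and 61.0 ± 6.47 TPM in cortex, 2.38-fold lower in diencephalon. Sema3a made 30.2% ± 2.29 of that sum in diencephalon and 65.8% ± 1.498 in cortex, and without it the sums were 17.97 ± 5.62 TPM and 20.8 ± 1.85 TPM (SD, n = 3), within the spread between libraries. On this scale the median gene was itself shifted towards diencephalon, by 0.22 as log2 of TPM plus 1, and the sums were not corrected for it.

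The membrane-bound semaphorins included the most abundant member of all, Sema6d, a transmembrane ligand of Plxna1. Sema6d was at 929, 888 and 892 CPM in diencephalon and 548, 431 and 481 CPM in cortex, so that its lowest diencephalon library exceeded its highest cortical library. The difference was 1.86-fold (log2 difference 0.89 ± 0.13, adjusted p = 1.41e-05), and per length Sema6d was first among the members in both regions, at 577 ± 6.87 TPM and 272 ± 36.8 TPM (SD, n = 3). Sema4g, a transmembrane class 4 semaphorin, was at 111, 139 and 112 CPM in diencephalon and 52.4, 47.4 and 25.5 CPM in cortex. Here cortical replicate 3 was the lowest library, and Sema4g was 2.84-fold higher in diencephalon (log2 difference 1.51 ± 0.20, adjusted p = 7.38e-06). Sema5a, a transmembrane semaphorin with thrombospondin repeats, was at 128, 127 and 121 CPM and 66.3, 57.0 and 68.9 CPM in the same order of regions. Its libraries were close within each region, and it was 1.96-fold higher (log2 difference 0.97 ± 0.14, adjusted p = 1.80e-05). Sema7a, the lipid-anchored semaphorin that signals through integrins and Plxnc1, was at 27.1, 26.4 and 32.4 CPM in diencephalon and 45.4, 48.4 and 59.0 CPM in cortex. It ran opposite to the other called membrane-bound semaphorins, 1.77-fold lower in diencephalon (log2 difference -0.82 ± 0.20, adjusted p = 0.00272). The other 8 tested members of classes 4, 5 and 6 did not pass, with log2 differences from -0.11 for Sema4f to 0.78 for Sema6b. The transmembrane class 6 summed to 707 ± 11.6 TPM in diencephalon and 364 ± 33.0 TPM in cortex (SD, n = 3), a ratio of 1.94, of which Sema6d made 81.7% and 74.5%.

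Both neuropilins, the co-receptors of secreted semaphorins, rose in diencephalon, where Sema3a fell. Nrp1, which also binds VEGF, was at 69.2, 63.3 and 84.7 CPM in diencephalon and 41.4, 33.5 and 44.7 CPM in cortex. Nrp2, the co-receptor preferred by Sema3f, was at 101, 148 and 112 CPM and 78.5, 84.6 and 78.9 CPM. The groups did not overlap for either gene, and the differences were 1.82-fold for Nrp1 (log2 difference 0.86 ± 0.18, adjusted p = 9.41e-04) and 1.49-fold for Nrp2 (log2 difference 0.57 ± 0.15, adjusted p = 0.00689). The Nrp2 call was lost without diencephalon replicate 2, its highest library, at an adjusted p of 0.0934 (range over the alternatives 0.00185 to 0.0934). Per length, Nrp1 was 7.31, 4.35 and 7.05 times Sema3a in the diencephalon libraries and 0.654, 0.454 and 0.551 times in the cortical ones, a pair chosen after the values were seen.

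Of the 9 plexins, the semaphorin receptors with an intracellular GTPase-activating domain, 4 were higher and 2 lower. Plxna1, a receptor of Sema3a with neuropilins and of Sema6d, was at 279, 359 and 351 CPM in diencephalon and 151, 133 and 133 CPM in cortex. Every diencephalon library was far above every cortical one, and Plxna1 was 2.37-fold higher (log2 difference 1.24 ± 0.13, adjusted p = 2.63e-07). Plxna3, its close relative, was at 34.6, 32.2 and 45.5 CPM and 16.6, 20.8 and 13.0 CPM, 2.21-fold higher (log2 difference 1.14 ± 0.24, adjusted p = 8.08e-04). Plxna2 ran the other way, at 253, 256 and 293 CPM in diencephalon and 353, 358 and 381 CPM in cortex. The gap between its regions was small but without overlap, 1.36-fold lower (log2 difference -0.45 ± 0.12, adjusted p = 0.00727), and on the TPM scales it did not pass, at adjusted p of 0.210 and 0.215 (range over the alternatives 3.79e-04 to 0.215). Plxna4 did not pass (log2 difference 0.26 ± 0.13, adjusted p = 0.127). Plxna1 made 40.0% ± 2.25 of the summed A-plexin TPM in diencephalon and 21.5% ± 1.64 in cortex, and Plxna2 26.5% ± 1.71 and 46.0% ± 1.46 (SD, n = 3). The sum itself was larger in diencephalon, 339 ± 38.0 TPM against 231 ± 13.0 TPM (SD, n = 3). In that sum Plxna1 stood at 136 TPM in diencephalon and 49.7 TPM in cortex, and Plxna2 at 89.6 and 106 TPM.

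The B plexins are receptors of class 4 and class 5 semaphorins. Plxnb3, a receptor of Sema5a known from oligodendrocytes, was at 44.0, 32.7 and 31.4 CPM in diencephalon and 15.3, 6.92 and 9.94 CPM in cortex, 3.29-fold higher (log2 difference 1.72 ± 0.28, adjusted p = 5.12e-05). The oligodendrocyte markers were 2.23-fold higher in sum, and the ependymal and choroid plexus markers 8.43-fold and subcortical neuron markers 5.46-fold higher. Oligodendrocyte progenitor markers ran the other way, 1.33-fold lower. The part of any of these cells in the Plxnb3 difference was not tested. Plxnb2, a receptor of class 4 semaphorins including Sema4g, was at 121, 119 and 127 CPM and 87.3, 84.1 and 65.8 CPM, 1.54-fold higher (log2 difference 0.62 ± 0.14, adjusted p = 0.00214). Plxnb1, the receptor of Sema4d and the plexin with the most TPM, was at 464, 305 and 338 CPM and 465, 433 and 258 CPM. Its regions overlapped, and neither Plxnb1 nor Sema4d passed (log2 difference -0.07 ± 0.22, adjusted p = 0.854, and log2 difference 0.38 ± 0.15, adjusted p = 0.0676).

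Plxnd1, the Sema3e receptor best known from endothelial cells and from cortical and striatal neurons, was at 29.5, 19.0 and 23.5 CPM in diencephalon and 93.8, 84.1 and 99.4 CPM in cortex. The regions were well apart, and Plxnd1 was 3.82-fold lower in diencephalon (log2 difference -1.93 ± 0.19, adjusted p = 7.15e-08). The cortical excitatory neuron markers were 4.04-fold lower in sum in the same libraries. Singly they differed widely: Camk2a, with most of the cortical sum, was 5.81-fold lower, Neurod6 31.3-fold and Rorb 1.64-fold lower, and Foxp2 alone was higher, 2.45-fold. The endothelial and mural markers were 1.49-fold lower in sum, at no more than 122 CPM in any library. In that list only Cdh5 was called of 5 tested, at 5.33 CPM on average in diencephalon and 31.9 CPM in cortex, while Flt1, Kdr, Pdgfrb and Slco1a4 did not pass and Cldn5 had at most 0.532 CPM in any library. The part of either cell type in the Plxnd1 difference was not tested. Plxnc1, the plexin bound by Sema7a, did not pass (log2 difference 0.35 ± 0.14, adjusted p = 0.0679).

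**Figure D2:**
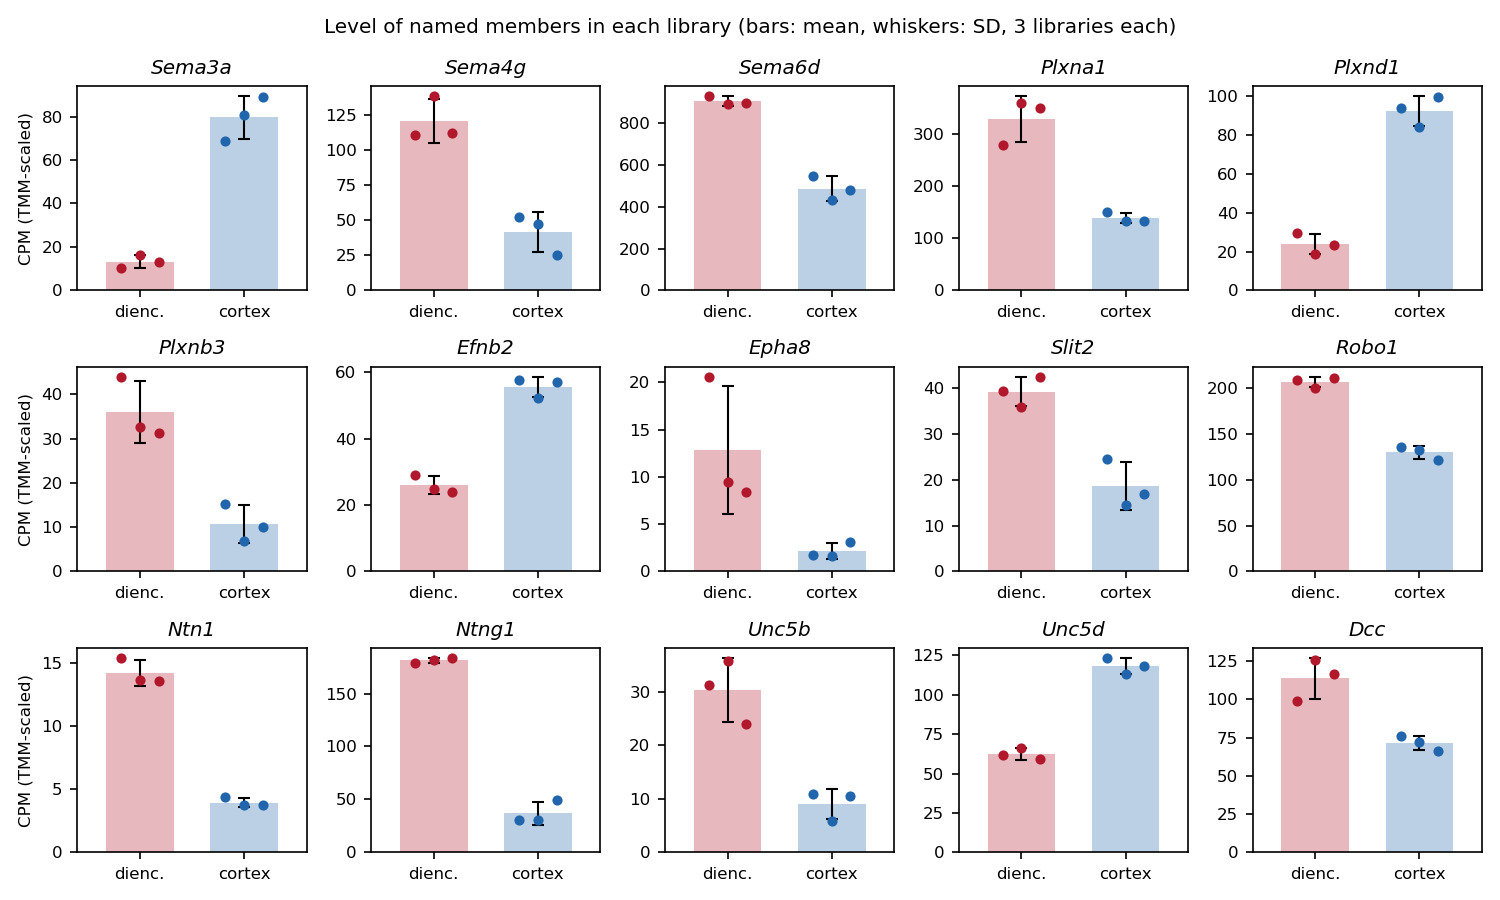
TMM-scaled CPM of 15 members (vertical axes, from 0) in each of the 3 diencephalon and 3 cortical grey matter libraries; points are libraries, bars are means and whiskers are SD. In all 15 panels the points of the regions do not overlap, from Sema6d at 431 to 929 CPM down to Epha8 at 1.60 to 20.6 CPM. The panels show only called members, so the 15 are not a count over the families. Of all tested members 37, or 61.7%, did not overlap, against 42.6% of all genes.

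Ephrins, the membrane-bound ligands of Eph receptors, had 1 member higher and 2 lower among 6 tested. Efnb2, a transmembrane ephrin of arterial endothelium and neural cells, was at 29.0, 24.8 and 24.0 CPM in diencephalon and 57.6, 52.2 and 57.1 CPM in cortex. Its libraries lay close together within each region, 2.14-fold lower in diencephalon (log2 difference -1.10 ± 0.19, adjusted p = 1.20e-04). Efnb3, the transmembrane ephrin of the spinal midline, was at 52.9, 45.3 and 39.2 CPM and 31.0, 21.3 and 20.5 CPM, 1.87-fold higher (log2 difference 0.90 ± 0.22, adjusted p = 0.00291). Per length, Efnb3 was 2.49, 2.50 and 2.22 times Efnb2 in the diencephalon libraries and 0.733, 0.557 and 0.489 times in the cortical ones, a pair chosen after the values were seen, and it made 64.0% ± 1.17 of the B-ephrin TPM against 31.8% ± 1.55 (SD, n = 3). Efna5, a lipid-anchored ephrin of topographic maps and the ephrin with the most TPM, was at 160.5, 188 and 137 CPM in diencephalon and 194, 222 and 356 CPM in cortex. Its highest library was cortical replicate 3, and its difference was the smallest of the 3 called ephrins, 1.58-fold lower (log2 difference -0.66 ± 0.20, adjusted p = 0.0263). The Efna5 call was lost on both TPM scales and without diencephalon replicate 1 or 3, at adjusted p of 0.0810 to 0.219 (range over all alternatives 1.72e-05 to 0.219). Efna2, Efna3 and Efnb1 did not pass, with log2 differences of 0.81 ± 0.34, 0.18 ± 0.29 and -0.71 ± 0.45.

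Among the 12 tested Eph receptors, 9 did not pass. Epha7, a receptor of A ephrins and the second most abundant member per length in both regions, was at 429, 383 and 337 CPM in diencephalon and 379, 388 and 486 CPM in cortex. The regions overlapped (log2 difference -0.12 ± 0.13, adjusted p = 0.528), at 213 ± 23.2 TPM and 204 ± 30.8 TPM (SD, n = 3). Epha4, which binds ephrins of both classes, also overlapped, at 111, 92.3 and 98.3 CPM and 90.7, 87.3 and 112 CPM (log2 difference 0.06 ± 0.15, adjusted p = 0.794). The other 7 that did not pass, namely Epha3, Epha5, Epha6, Ephb2, Ephb3, Ephb4 and Ephb6, had log2 differences from -0.66 to 0.68. With standard errors up to 0.34 among the Eph receptors that did not pass, fold differences of the size seen for Ephb1 were not detectable for the least counted of them.

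Of the 3 Eph receptors called, Epha8, a receptor of A ephrins, was at 20.6, 9.49 and 8.36 CPM in diencephalon and 1.75, 1.60 and 3.11 CPM in cortex. Diencephalon replicate 1 was the highest library, the cortical values were near the floor of 3 counts (1.31 to 1.86 CPM), and the fitted difference was 6.04-fold higher (log2 difference 2.59 ± 0.49, adjusted p = 3.17e-04). Epha10, which has no kinase activity, was at 21.5, 17.4 and 18.8 CPM and 8.73, 9.05 and 10.6 CPM, 2.05-fold higher (log2 difference 1.03 ± 0.29, adjusted p = 0.00831). On the TPM scales the Epha10 call was lost, at adjusted p of 0.188 and 0.193 (range over the alternatives 0.00545 to 0.193). Ephb1, a receptor of B ephrins, was at 44.0, 33.2 and 36.1 CPM in diencephalon and 58.0, 68.7 and 46.6 CPM in cortex. Its regions came within a few CPM of each other without overlap, 1.53-fold lower (log2 difference -0.61 ± 0.19, adjusted p = 0.0197). Ephb1 did not pass on the TPM scales or without diencephalon replicate 2 or 3 or cortical replicate 1 or 2, at adjusted p of 0.0506 to 0.179 (range over all alternatives 0.00324 to 0.179).

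All 3 slits, the large secreted repellents, and both robos with enough counts were called, in both directions. Slit1 was at 16.4, 19.0 and 22.5 CPM in diencephalon and 11.3, 5.32 and 8.07 CPM in cortex. Slit2 was at 39.3, 35.9 and 42.3 CPM and 24.4, 14.4 and 16.8 CPM. These members were 2.28-fold and 2.08-fold higher in diencephalon, with no overlap of the regions (log2 difference 1.19 ± 0.32, adjusted p = 0.00631, and log2 difference 1.06 ± 0.23, adjusted p = 0.00121). Slit3 was at 22.9, 27.9 and 18.8 CPM in diencephalon and 32.3, 37.8 and 44.1 CPM in cortex, 1.63-fold lower (log2 difference -0.70 ± 0.22, adjusted p = 0.0191). Slit3, the slit with the most TPM, made 36.1% ± 6.51 of the summed slit TPM in diencephalon and 67.3% ± 9.45 in cortex (SD, n = 3). Its call was lost on the TPM scales and without diencephalon replicate 1 or 3 or cortical replicate 3, at adjusted p of 0.0533 to 0.174 (range over all alternatives 0.00939 to 0.174).

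The main slit receptors also moved apart. Robo1 was at 209, 200.4 and 211 CPM in diencephalon and 135, 133 and 122 CPM in cortex, narrow ranges with a wide gap, 1.59-fold higher (log2 difference 0.67 ± 0.12, adjusted p = 2.58e-04). Robo2 was at 153, 169 and 166 CPM and 186, 226 and 237 CPM, 1.33-fold lower (log2 difference -0.41 ± 0.13, adjusted p = 0.0200). Per length, Robo1 was 1.46, 1.26 and 1.35 times Robo2 in the diencephalon libraries and 0.775, 0.624 and 0.546 times in the cortical ones, so that Robo1 led in every diencephalon library and Robo2 in every cortical one. This pair, like that of Plxna1 and Plxna2 (1.35, 1.72 and 1.47 against 0.523, 0.456 and 0.428), was chosen after the values were seen. The Robo2 call was not stable, since it was lost on the TPM scales and without diencephalon replicate 1 or 3 or cortical replicate 2, at adjusted p of 0.0575 to 0.351 (range over all alternatives 0.00326 to 0.351).

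**Figure D3:**
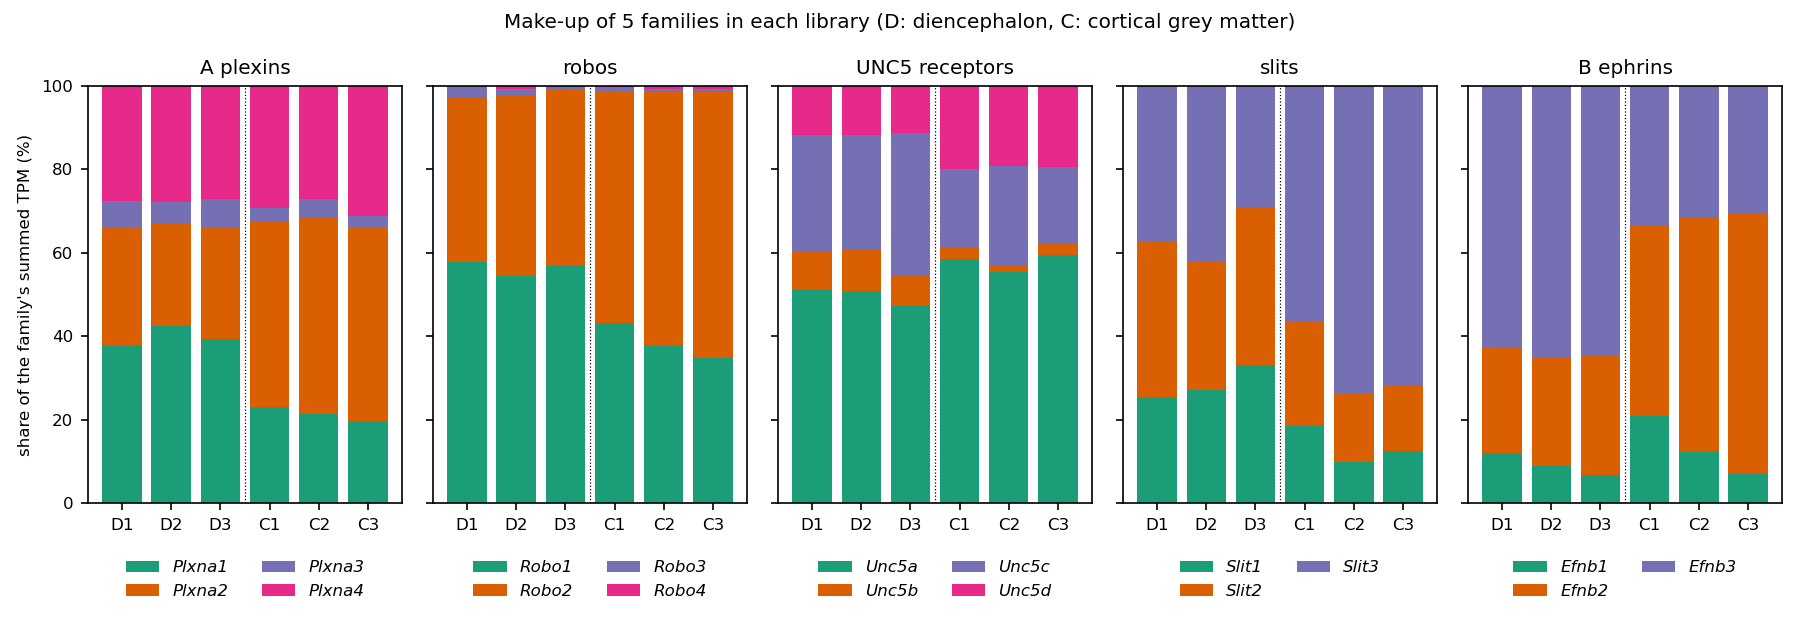
Share of each member in its family's summed TPM (vertical axis, percent, stacked to 100) in each library for the A plexins, robos, UNC5 receptors, slits and B ephrins; D1 to D3 are diencephalon and C1 to C3 cortical grey matter. The larger share passes from Robo1 (56.4% on average) in diencephalon to Robo2 (60.1%) in cortex, and from Efnb3 (64.0%) to Efnb2 (54.7%).

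Netrins are laminin-related secreted cues, and 2 of 3 tested were higher in diencephalon. Ntn1, the classical attractant for commissural axons, was at 15.4, 13.7 and 13.6 CPM in diencephalon and 4.36, 3.73 and 3.73 CPM in cortex. The libraries were nearly alike within each region, though the cortical ones held only 10, 7 and 6 counts. Ntn1 was 3.55-fold higher (log2 difference 1.83 ± 0.36, adjusted p = 4.93e-04). Ntn4, a basement membrane netrin and the netrin with the most TPM, was at 19.2, 22.1 and 24.0 CPM and 8.73, 8.52 and 8.70 CPM. It was 2.50-fold higher (log2 difference 1.32 ± 0.28, adjusted p = 9.86e-04), also with very close libraries, at 20, 16 and 14 counts in cortex. At such counts the closeness of the libraries is no measure of precision. Ntn3 did not pass (log2 difference 0.16 ± 0.36, adjusted p = 0.778). Summed, the netrins reached 52.4 ± 2.10 TPM in diencephalon and 21.0 ± 1.53 TPM in cortex (SD, n = 3).

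Netrin-G1, encoded by Ntng1, is lipid-anchored, binds the synaptic adhesion molecule Lrrc4c rather than DCC, and is a known product of thalamic neurons. Ntng1 was at 179, 182 and 183 CPM in diencephalon and 31.0, 30.9 and 49.7 CPM in cortex. The diencephalon libraries were almost equal and the cortical ones reached at most 49.7 CPM, and Ntng1 had the smallest adjusted p among the members, 4.94-fold higher (log2 difference 2.31 ± 0.17, adjusted p = 9.27e-10). Per length it ranked 4 among the members in diencephalon, at 187 ± 16.1 TPM, and 30 in cortex, at 30.1 ± 15.2 TPM (SD, n = 3). In the same libraries the subcortical neuron markers were 5.46-fold higher in sum, with 4 of 12 tested. Singly they differed widely: Tcf7l2, with most of the cortical sum, was 2.71-fold higher, Slc17a6 14.5-fold and Lhx9 24.7-fold, and Pmch was at 0 CPM in cortex. The part of these neurons in the Ntng1 difference was not tested.

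The netrin receptors were divided. Dcc, the attractive receptor, was at 99.2, 125 and 117 CPM in diencephalon and 75.9, 71.9 and 66.5 CPM in cortex, 1.59-fold higher without overlap (log2 difference 0.67 ± 0.15, adjusted p = 0.00138). Its relative Neo1, a receptor of repulsive guidance molecules as well as netrins and the netrin receptor with the most TPM, was at 358, 388 and 386 CPM and 345, 291 and 287 CPM. The regions of Neo1 did not overlap, but it did not pass (log2 difference 0.29 ± 0.12, adjusted p = 0.0787). It passed on the TPM scales, where the adjusted p was lowest of all alternatives (range 0.0241 to 0.267).

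All 4 UNC5 receptors, which mediate repulsion from netrins, were called, 2 in each direction. Unc5b was at 31.3, 35.9 and 24.0 CPM in diencephalon and 10.9, 5.86 and 10.6 CPM in cortex, 3.31-fold higher (log2 difference 1.73 ± 0.28, adjusted p = 6.84e-05). Unc5d, which also binds FLRT proteins, was at 61.8, 66.4 and 59.1 CPM and 123, 113 and 118 CPM, 1.90-fold lower (log2 difference -0.92 ± 0.14, adjusted p = 3.13e-05). Both were well separated between the regions and kept their calls under every alternative run. Unc5a was at 112, 121 and 103 CPM in diencephalon and 152, 137 and 152 CPM in cortex. Unc5c was at 146, 158 and 178 CPM and 116, 141 and 112 CPM. These gaps were narrow, 1.31-fold lower and 1.30-fold higher (log2 difference -0.39 ± 0.13, adjusted p = 0.0291, and log2 difference 0.38 ± 0.14, adjusted p = 0.0407), and neither call was stable. Unc5a was lost with DESeq2, on the TPM scales and without diencephalon replicate 1 or 3 or cortical replicate 1, at adjusted p of 0.0515 to 0.343 (range over all alternatives 0.00811 to 0.343). Unc5c was lost with DESeq2, with the length trend removed, and without diencephalon replicate 2 or 3 or cortical replicate 1 or 3, at adjusted p of 0.0765 to 0.191 (range 0.0285 to 0.191). The sum of the 4 was 216 ± 12.5 TPM in diencephalon and 212 ± 9.23 TPM in cortex (SD, n = 3), within the spread between libraries, while Unc5b took 8.96% ± 1.41 and 2.38% ± 0.692 of it and Unc5d 11.6% ± 0.214 and 19.5% ± 0.383. These sums were not corrected for the shift of the median gene towards diencephalon on this scale, 0.22 as log2 of TPM plus 1.

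Across the members, levels per length spanned more than the differences between the regions. The summed level was 3766 ± 111 TPM in diencephalon and 2722 ± 175 TPM in cortex (SD, n = 3), a ratio of 1.38, while the median gene on the TPM scale was itself shifted by 0.22 (log2 of TPM plus 1) towards diencephalon. After Sema6d and Epha7, diencephalon was led by Neo1 at 192 ± 10.9 TPM, Ntng1 and Plxnb1 at 159 ± 33.7 TPM, and cortex by Efna5 at 161 ± 55.4 TPM, Plxnb1 at 145 ± 41.6 TPM and Neo1 at 136 ± 16.0 TPM (SD, n = 3). In each region these 3 differed from each other by less than the largest SD among them. Sema4g ranked 9 in diencephalon, at 107 ± 14.6 TPM, and 29 in cortex, at 32.0 ± 10.9 TPM.

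**Figure D4:**
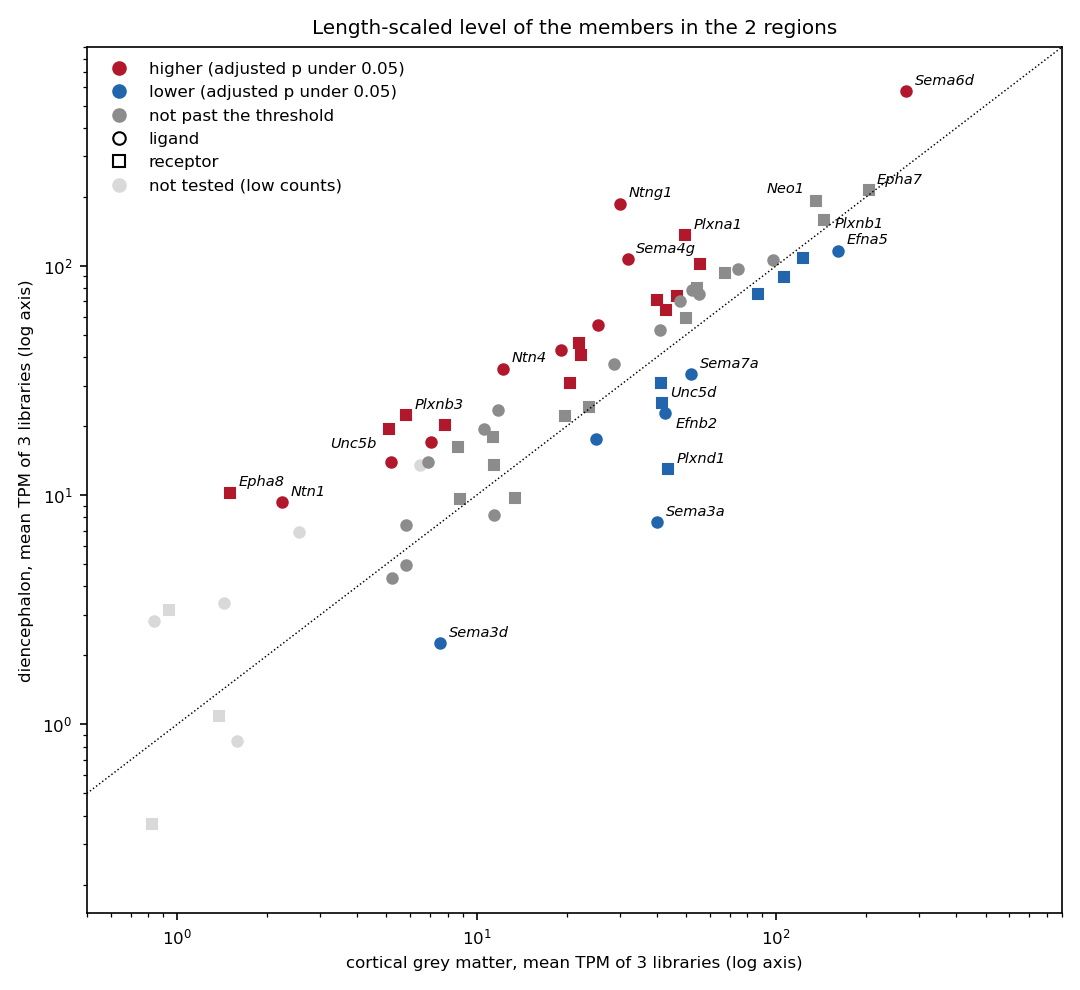
Mean TPM of each member in cortical grey matter (horizontal, log axis) against diencephalon (vertical, log axis), means of 3 libraries, with circles for ligands, squares for receptors and a dotted line of equal level. 68 members are drawn, and 5 that were listed at 0 in at least 1 region are not; Sema6d is the highest in both regions, and Ntng1 and Sema3a lie on opposite sides of the line.

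The 13 members without a test had few counts. Plxna4os1 had none in any library. Robo3, a robo of commissural axons, was at 6.08, 3.69 and 2.09 CPM in diencephalon and 1.75, 1.06 and 1.24 CPM in cortex, and Sema3f, a secreted repellent of Nrp2-bearing axons, was at 3.27, 2.64 and 1.57 CPM and 0.873, 1.06 and 0.621 CPM. In both, every diencephalon library was above every cortical one, at 1 to 13 counts a library. Sema3c was at 2.81, 7.38 and 3.14 CPM and 1.75, 1.60 and 3.11 CPM, Sema4c at 4.21, 11.6 and 4.70 CPM and 2.62, 3.73 and 2.48 CPM, and Ntng2 at 4.68, 7.38 and 3.66 CPM and 2.62, 4.26 and 1.86 CPM. Epha1 had 11 counts over the diencephalon libraries, all in replicates 2 and 3, and 0 in cortex, a ratio of 3.56 when the cortical total is set to the floor of 3 counts. Efna1 had 0 counts in diencephalon and 4 in cortex, a cortical to diencephalon ratio of 1.37 with the diencephalon total set to that floor. Neither ratio is a lower bound, since the counts of the higher region were taken as exact. Efna4 and Robo4 had 2 counts each in diencephalon and 4 and 5 in cortex, cortical to diencephalon ratios of 2.06 (95% interval 0.295 to 22.7) and 2.57 (0.421 to 27.0), intervals that cover counting error only. Epha2 had 7 and 8 counts, mostly in 1 library of each region, Ntn5 had 0 and 2, and Sema3g had 1 and 0. Among the tested members, Efnb1, Epha8, Ntn1, Sema3b, Sema3d, Sema6b and Slit1 were above the level that the count filter asks for (5.22 CPM, on library totals without TMM scaling) in all 3 libraries of at most 1 region, so a call of theirs rests on the region in which they are high. On the TMM-scaled values printed above, Slit1 was above that level in all 6 libraries.

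Outside the families, 2 lists of genes of the same pathways were counted with the same edgeR test. Of 24 other guidance cues and co-receptors, 23 were tested, with 9 higher, 4 lower and a median log2 difference of 0.06. The share called was 56.5% (39.1% higher and 17.4% lower), beside 29.6% of all genes (14.9% and 14.8%). Both lists were chosen with earlier results of these data known, so an excess over all genes cannot be read from the share called in either. Those with the smallest adjusted p were Lrig1, a transmembrane regulator of growth factor receptors (3.57-fold higher, adjusted p = 4.05e-08), the axonal adhesion molecule Cntn2 (2.67-fold higher, 4.78e-07), the netrin receptor Dscam (2.31-fold higher, 2.18e-06), the neuropilin partner L1cam (2.07-fold higher, 3.63e-06) and Lingo1, a co-receptor for myelin inhibitors (1.89-fold lower, 6.19e-06). Rgma, a repulsive ligand of Neo1, was at 196, 191 and 199 CPM in diencephalon and 135, 133 and 107 CPM in cortex, 1.55-fold higher (log2 difference 0.63 ± 0.13, adjusted p = 7.51e-04). Rgmb, its relative, was 1.85-fold higher (log2 difference 0.89 ± 0.31, adjusted p = 0.0341), a call lost in 6 alternatives (range of adjusted p 0.0231 to 0.137), and Draxin, a secreted Dcc ligand, had too few counts to test. Of 53 intracellular effectors, 49 were tested, with 10 higher, 12 lower and a median log2 difference of -0.05. Here 44.9% were called, 20.4% higher and 24.5% lower. Its leading genes were Sipa1l1, a Rap GTPase-activating protein (5.41-fold lower, adjusted p = 3.70e-10), the ubiquitin ligase Trim67 (5.72-fold higher, 4.65e-09), Srgap1, a GTPase-activating protein that binds robos (3.48-fold higher, 7.89e-09), Mical2, an actin-oxidising enzyme (2.92-fold lower, 1.26e-08), and Chn1, a Rac GTPase-activating protein downstream of Eph receptors (2.56-fold lower, 2.99e-08).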

How the data were processed

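Translated mRNA was purified through HA-tagged ribosomes, amplified with the Ovation RNA-Seq system and sequenced on an Ion Proton, per the labels' protocols. The authors deposited, per library and gene, expected counts, TPM, FPKM and transcript lengths made with RSEM on mm9, per the submitters' processing notes. No aligner, version or strand setting is given in the sources used here, so overlapping or antisense genes and close paralogs may share reads. The deposited FPKM values were not used.

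Expected counts, of which 3.64% to 3.99% were not whole, were rounded and tested with edgeR 4.0.16 in R 4.3.3 (robust quasi-likelihood test, TMM, filterByExpr with a minimum count of 10, region as the only term) on all 6 libraries. The test was checked on simulated data with the same dispersion for every gene and no outlying library. That check does not cover spread that differs between genes or a library like cortical replicate 3. A count of 0 allows up to 3 counts, or 1.31 to 1.86 CPM. The deposited TPM values give levels between genes and enter limma 3.58.1 alternatives, and DESeq2 1.42.0 is another. Called members are named where their higher region reached 10 CPM, as is the member with the most TPM in each family. Named partner genes are the 5 with the smallest adjusted p in each list, with Rgma, Rgmb and Draxin. Members and lists were chosen with earlier results of these data known. Replicates are separate pools of 3 mice. Whether libraries with the same number share mice is not stated. Their deviations correlated weakly (0.06, -0.10 and 0.00), which does not decide it.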

Additional observations from a re-analysis of the deposited data

How the results depend on the processing

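Of the 33 called members, 23 kept their call in every alternative that tested them (14 alternatives), and no called member changed sign. Of the 27 that did not pass, 10 passed in at least 1 alternative and 11 changed sign in at least 1. The counts of higher and lower members were 21 and 12 with RLE size factors, 22 and 12 without a count filter (Epha1 in addition), 19 and 11 at a minimum count of 30, 20 and 11 with DESeq2, and 20 and 12 with the length trend removed. With a replicate block they were 21 and 12, the same genes. Whether the numbers pair the libraries is not known, and not every library correlated best with its own number. On log2(TPM + 1) they were 23 and 6 and on log2(TPM + 0.1) 23 and 5. There the median of all genes lay at 0.22 and 0.23, the median of the members was 0.32 above it in both, and 79.3% and 82.1% of the members called were higher against 63.6%, while over all genes 68.9% and 68.7% of calls were higher against 50.2%. Leaving out each library in turn gave 19 to 24 higher and 7 to 11 lower, with the lowest count of lower members without diencephalon replicate 3. With at most 2334237 counts a library, the count filter of the main test asked for about 5.22 CPM in enough libraries. The 13 members that fell short were not tested there, and without a count filter 72 members were tested.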
